A study of Homo sapiens with 12 samples.

Results

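The ERK feedback genes described here are 10 genes: the phosphatases DUSP6, DUSP4 and DUSP5, the inhibitors SPRY1, SPRY2, SPRY4 and SPRED1, and the transcription factors ETV1, ETV4 and ETV5. They were taken by name from the 18404 genes measured, through the platform annotation of the probe sets, and each of the 10 was measured by 1 probe set. The genes were chosen by name and not by a cutoff, but with earlier results of these data in view, among them the opposite log2 changes of DUSP6 after siSOX2 in the 2 lines. All values of DUSP6, with its intervals and marks in the figures, are therefore given as a description with no test. Counts of genes that passed a test are given over the other 9. Only the closing section on processing counts DUSP6 too, as a description.

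Extracellular signal-regulated kinase (ERK) is the last kinase of the RAS-RAF-MEK cascade, which runs downstream of fibroblast growth factor (FGF) receptors and other receptor tyrosine kinases. Active ERK switches on genes that damp the pathway. Among them are phosphatases that strip phosphate from ERK, and Sprouty and SPRED proteins that act near the receptor and RAS. ETV1, ETV4 and ETV5, the PEA3 group of ETS factors, are transcribed in response to FGF and carry the signal to the genome. FGF and ERK signalling is known to bear on self-renewal and on the exit towards mesoderm and endoderm in human pluripotent cells.

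RNA was profiled in 2 human embryonal carcinoma cell lines, 2102Ep (nullipotent) and NTera-2 (pluripotent). Each line received either an siRNA that targets SOX2 (siSOX2) or the non-targeting Silencer Select Negative Control #1. By the study's methods, transfection lasted 6 hours in serum-free medium. The cells then stood in growth medium with serum, refreshed daily, and were taken 72 hours later. The 4 groups were 2102Ep siSOX2, 2102Ep control, NTera-2 siSOX2 and NTera-2 control, with 3 arrays each. All 12 samples were cells that had received a lipid reagent, Lipofectamine 2000 in 2102Ep and Lipofectamine RNAiMAX in NTera-2. By the study's methods the siRNA was given at a lower concentration in 2102Ep than in NTera-2, so that line, reagent and siRNA amount cannot be told apart. The same single siRNA against SOX2 was used in both lines.

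Values are log2 signals from Affymetrix Human Gene 1.0 ST arrays, so that a change of 1 is a 2-fold change. Array medians lay between 7.43 and 7.58, and replicate arrays had correlations of 0.983 to 0.994 over the probe sets. Precision is limited by the 3 arrays a group. The SOX2 signal checked the labels: it was 9.09 ± 0.26 in 2102Ep siSOX2 cells and 12.23 ± 0.04 in 2102Ep control cells, and 11.91 ± 0.05 in NTera-2 siSOX2 cells and 12.56 ± 0.07 in NTera-2 control cells (SD, n = 3 each). Of 14 markers of embryonal carcinoma and pluripotent cells 12 were measured, and 11 of them lay above the median gene, ZFP42 being below it. POU5F1 and NANOG, which define such cells, are not analysed here. The 12 include SOX2 itself. Over the other 11 the mean was 10.98 to 11.14 on 2102Ep siSOX2 arrays and 11.27 to 11.45 on 2102Ep control arrays, and 10.42 to 10.63 on NTera-2 siSOX2 arrays and 10.45 to 10.72 on NTera-2 control arrays. For 10 fibroblast markers, of which 5 lay above the median gene, the mean was 7.15 to 7.27 and 6.91 to 7.15 in the same 2 groups of 2102Ep, and 7.16 to 7.30 and 7.16 to 7.32 in those of NTera-2. Of the fibroblast list THY1 (10.06 to 11.58) and VIM (9.21 to 11.63), which many cell types express, were highest, COL1A1 read 8.33 to 9.13, and DCN (3.78 to 4.14) and LUM (2.92 to 4.72) were lowest. For 9 of 10 leukocyte markers, of which 1 lay above the median gene, the mean stayed between 6.21 and 6.56 on all 12 arrays, and PTPRC read 3.97 to 4.43. The part of these shifts in the results below was not tested.

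All 12 arrays were fitted together in limma, with Benjamini-Hochberg adjustment over all 18404 genes. A gene is said to have risen, fallen or differed at an adjusted p of 0.05 or less. It is said to be called when the change was also at least 2-fold. In a bulk sample, fewer cells that express a gene and less of its RNA per cell cannot be told apart.

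DUSP6 moved in opposite directions in the 2 lines. The DUSP6 protein is a cytoplasmic phosphatase that acts on ERK with high preference, and its transcript is widely used as a readout of ERK activity. In 2102Ep its signal was 8.44, 8.53 and 8.89 on the siSOX2 arrays and 7.32, 7.54 and 7.77 on the control arrays. In NTera-2 it was 7.76, 8.14 and 8.32 on the siSOX2 arrays and 9.68, 9.73 and 9.81 on the control arrays. The siSOX2 arrays lay wholly above the controls in 2102Ep and wholly below them in NTera-2. The log2 change was 1.08 ± 0.15 (SE) in 2102Ep and -1.67 ± 0.15 in NTera-2, and the difference between these changes (2102Ep minus NTera-2) was 2.75 ± 0.21. Without 2102Ep control replicate 1 the change in 2102Ep was 0.97, and without 2102Ep siSOX2 replicate 3 it was 0.95, both under 2-fold. The change in NTera-2 was the 25th largest in size of all genes there, and that in 2102Ep the 307th. Over the 4 groups the mean was 7.54 in 2102Ep control cells, 8.08 in NTera-2 siSOX2 cells, 8.62 in 2102Ep siSOX2 cells and 9.74 in NTera-2 control cells. The arrays of the 2 lowest groups overlapped, and no other neighbours in this order did.

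The other phosphatases moved little. DUSP4 and DUSP5 encode nuclear phosphatases, DUSP5 being selective for ERK. DUSP4 had 6.64, 6.69 and 6.78 in 2102Ep siSOX2 cells against 6.74, 6.95 and 7.04 in 2102Ep control cells. It had 7.34, 7.41 and 7.42 in NTera-2 siSOX2 cells against 7.28, 7.40 and 7.58 in NTera-2 control cells. The arrays overlapped in both lines. Its change was -0.21 ± 0.11 in 2102Ep (SE; adjusted p = 0.282, limma) and -0.03 ± 0.11 in NTera-2 (adjusted p = 0.957, limma). For DUSP5 the change was -0.20 ± 0.10 in 2102Ep (adjusted p = 0.258, limma) and -0.01 ± 0.10 in NTera-2 (adjusted p = 0.985, limma). The 95% confidence intervals ran from -0.44 to 0.02 and from -0.26 to 0.20 for DUSP4, and from -0.42 to 0.01 and from -0.23 to 0.20 for DUSP5, so that changes of 2-fold lay outside them. In mean signal DUSP4 lay below the median gene. Changes of dim genes are understated, so its intervals bound the change in signal and not that in RNA. What separated the lines for DUSP5 was its level, 8.99 to 9.09 on NTera-2 siSOX2 arrays and 8.92 to 9.16 on NTera-2 control arrays, against 9.79 to 10.05 on 2102Ep siSOX2 arrays and 10.11 to 10.16 on 2102Ep control arrays.

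**Figure D1:**
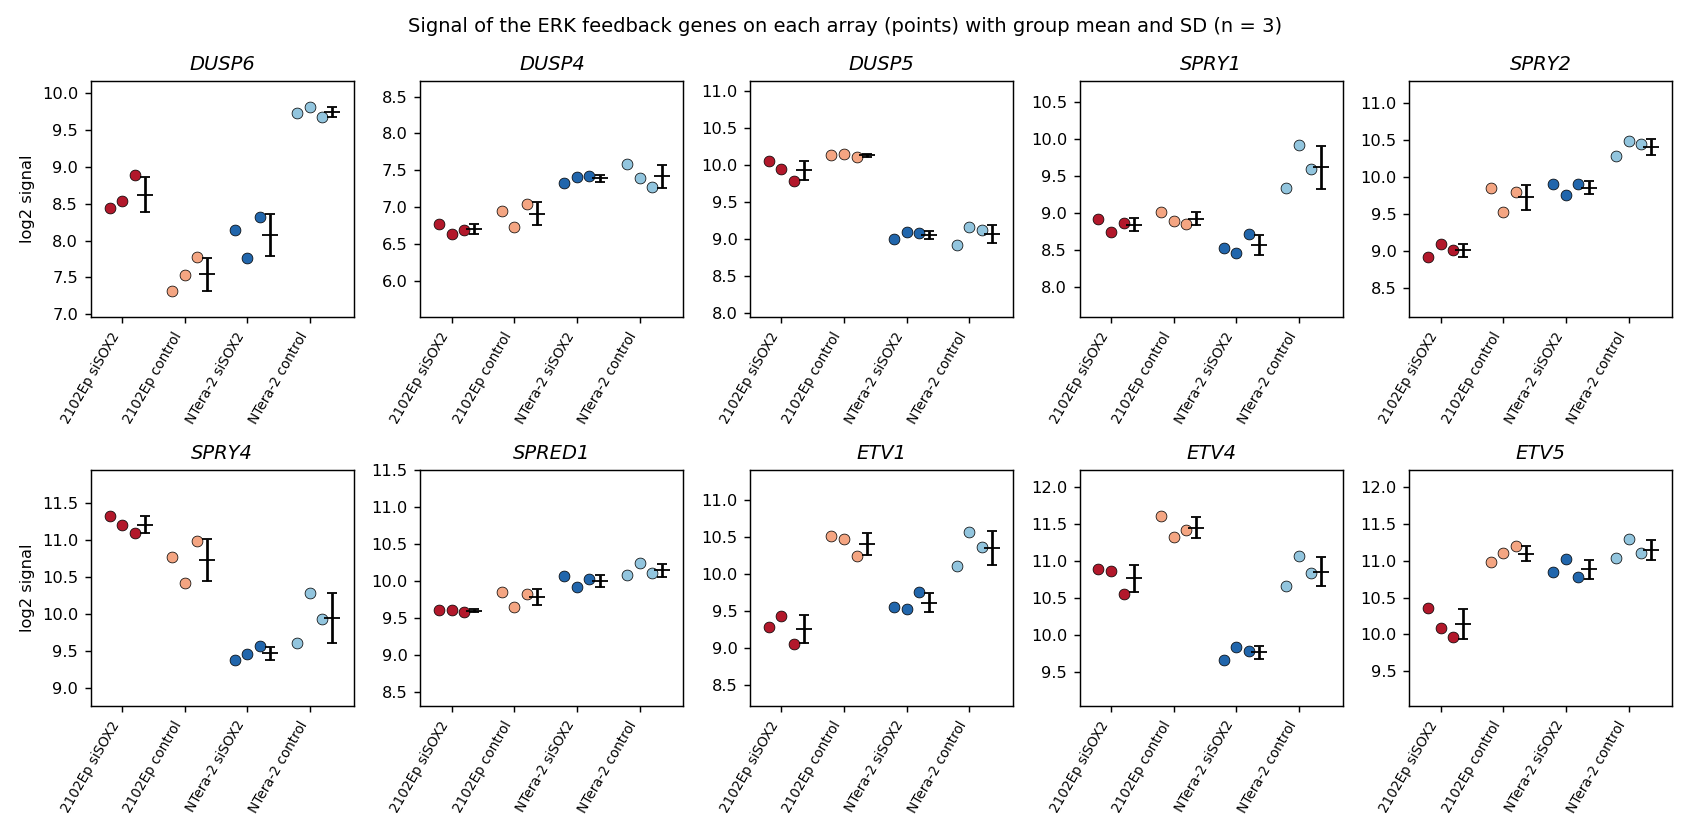
Log2 signal (vertical axis) of each of the 10 genes on each array (coloured points), by group (horizontal axis), with the group mean and SD (n = 3) as a black bar. Every panel spans the same number of log2 units. The siSOX2 arrays of DUSP6 lie at 8.44 to 8.89 against 7.32 to 7.77 in 2102Ep, and at 7.76 to 8.32 against 9.68 to 9.81 in NTera-2.

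The Sprouty genes did not share 1 pattern. Sprouty proteins hold back the signal between the receptor, RAS and RAF. SPRY2 fell in both lines. Its arrays read 8.92, 9.01 and 9.09 in 2102Ep siSOX2 cells against 9.52, 9.79 and 9.85 in 2102Ep control cells, and 9.76, 9.90 and 9.91 in NTera-2 siSOX2 cells against 10.28, 10.45 and 10.48 in NTera-2 control cells. The groups did not overlap in either line. The changes were -0.72 ± 0.11 (SE; adjusted p = 0.000183, limma) and -0.55 ± 0.11 (adjusted p = 0.00511, limma), and both were under 2-fold.

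SPRY1 fell in NTera-2. It read 8.46, 8.52 and 8.72 in NTera-2 siSOX2 cells and 9.34, 9.59 and 9.92 in NTera-2 control cells, with no overlap. The change was -1.05 ± 0.13 (SE; adjusted p = 6.39e-05, limma), and it was under 2-fold without NTera-2 control replicate 2 (-0.90) or NTera-2 siSOX2 replicate 2 (-0.996). In 2102Ep the arrays overlapped, at 8.74, 8.87 and 8.91 in siSOX2 cells and 8.85, 8.89 and 9.02 in control cells. The change there was -0.08 ± 0.13 (adjusted p = 0.799, limma), with an interval of -0.36 to 0.19.

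SPRY4 moved the way DUSP6 did in sign, but passed the test in neither line alone. It read 11.10, 11.21 and 11.33 in 2102Ep siSOX2 cells against 10.42, 10.78 and 10.99 in 2102Ep control cells, a change of 0.48 ± 0.16 (SE; adjusted p = 0.056, limma). In NTera-2 it read 9.38, 9.46 and 9.56 in siSOX2 cells against 9.61, 9.94 and 10.28 in control cells, a change of -0.47 ± 0.16 (adjusted p = 0.115, limma). The arrays did not overlap in either line, and the control arrays were more spread than the siSOX2 arrays in both. The change in 2102Ep passed with an intensity trend in the variance (adjusted p = 0.045, limma) and with dim genes left out (adjusted p = 0.0488, limma). It also passed without 1 of 3 control arrays (adjusted p = 0.0175 without 2102Ep control replicate 3, 0.0314 without NTera-2 control replicate 1 and 0.0303 without NTera-2 control replicate 2, limma). In the other alternative fits it did not pass. With 1 array left out it ran from 0.33 to 0.61 (adjusted p up to 0.228, limma). The change in NTera-2 passed only without NTera-2 control replicate 1 (-0.64, adjusted p = 0.0295, limma). With 1 array left out it ran from -0.64 to -0.30 (adjusted p up to 0.413, limma). SPRED1, a membrane-bound relative of the Sprouty proteins that brings neurofibromin to RAS, was at -0.18 ± 0.10 in 2102Ep (adjusted p = 0.306, limma) and -0.14 ± 0.10 in NTera-2 (adjusted p = 0.607, limma). Its siSOX2 arrays lay below its controls in both lines, at 9.58 to 9.61 against 9.65 to 9.85 in 2102Ep and at 9.92 to 10.07 against 10.08 to 10.24 in NTera-2.

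The 3 ETV genes pointed down in both lines, and ETV1 and ETV4 passed the test in each. ETV1 read 9.06, 9.28 and 9.43 in 2102Ep siSOX2 cells against 10.24, 10.47 and 10.52 in 2102Ep control cells. In NTera-2 it read 9.53, 9.55 and 9.75 in siSOX2 cells against 10.11, 10.36 and 10.57 in control cells. The groups were apart in both lines, and the changes were -1.15 ± 0.13 (SE; adjusted p = 8.18e-06, limma) and -0.74 ± 0.13 (adjusted p = 0.00222, limma).

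ETV4 read 10.55, 10.86 and 10.89 in 2102Ep siSOX2 cells against 11.33, 11.42 and 11.61 in 2102Ep control cells. In NTera-2 it read 9.67, 9.78 and 9.84 in siSOX2 cells against 10.67, 10.84 and 11.07 in control cells. Again no array crossed over. The changes were -0.69 ± 0.13 (SE; adjusted p = 0.000943, limma) and -1.10 ± 0.13 (adjusted p = 2.66e-05, limma), the second being -0.99 without NTera-2 control replicate 2.

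ETV5 fell in 2102Ep, with 9.97, 10.08 and 10.36 in siSOX2 cells against 10.99, 11.10 and 11.19 in control cells. In NTera-2 it read 10.78, 10.84 and 11.03 in siSOX2 cells against 11.04, 11.10 and 11.30 in control cells, so that the gap between the groups was smaller than the spread within either. The changes were -0.96 ± 0.12 (SE; adjusted p = 2.17e-05, limma), which reached 2-fold without 2102Ep control replicate 1 (-1.01) or 2102Ep siSOX2 replicate 1 (-1.07), and -0.26 ± 0.12 (adjusted p = 0.317, limma).

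Across the 9 genes other than DUSP6, 0 rose and 4 fell in 2102Ep (SPRY2, ETV1, ETV4 and ETV5), beside 6.76% of all genes that rose and 5.90% that fell. In NTera-2 0 rose and 4 fell (SPRY1, SPRY2, ETV1 and ETV4), beside 2.96% and 1.98% of all genes. In 2102Ep 0 of 9 were called higher (1.15% of all genes) and 1 lower, ETV1 (0.826%). In NTera-2 0 of 9 were called higher (0.310% of all genes) and 2 lower, SPRY1 and ETV4 (0.348%). The arrays of the 2 groups did not overlap for 7 of 9 genes in 2102Ep and for 7 of 9 in NTera-2, as for 25.2% and 21.3% of all genes. These counts describe the list and support nothing beyond it, because it was chosen with these contrasts known. The median change of the 10 genes was -0.21 in 2102Ep, where that of all genes was -0.01, and -0.51 in NTera-2, where that of all genes was 0.04. Below 0 lay 8 of 10 genes in 2102Ep and 10 of 10 in NTera-2, although DUSP4 and DUSP5 were so near 0 in NTera-2 that leaving out 1 array turned their sign.

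The next question was whether the responses differed between the lines, which was tested as an interaction of line and siRNA. Of the 9 genes other than DUSP6 3 differed, SPRY1 and SPRY4 towards higher in 2102Ep and ETV5 towards lower, beside 2.53% of all genes that were higher and 2.67% that were lower. The remaining 6 did not pass, and 0 of 9 were called higher or lower (0.989% and 0.668% of all genes). These counts too describe the list only, because it was chosen with earlier results of these data known. For SPRY1 the difference (2102Ep minus NTera-2) was 0.97 ± 0.18 (SE; adjusted p = 0.00369, limma) and for SPRY4 it was 0.96 ± 0.22 (adjusted p = 0.0157, limma). These 2 remained past the adjusted p whichever array was left out and reached 2-fold under some settings. The difference of ETV5, -0.69 ± 0.17 (adjusted p = 0.0207, limma), did not pass with a further quantile normalization (adjusted p = 0.0604) or without any 1 of 5 arrays (adjusted p = 0.0565 to 0.071). They were 2102Ep siSOX2 replicates 2 and 3, NTera-2 control replicates 1 and 3, and NTera-2 siSOX2 replicate 2.

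Among the ETV genes, ETV1 fell more in 2102Ep than in NTera-2 by 0.42 (interval of the difference -0.81 to -0.02; adjusted p = 0.297, limma), and ETV4 less by 0.41 (interval 0.03 to 0.78; adjusted p = 0.275, limma). Neither passed. For SPRY2 the interval of the difference was -0.49 to 0.16, for SPRED1 -0.33 to 0.25, for DUSP4 -0.51 to 0.15 and for DUSP5 -0.50 to 0.12, so that differences of 2-fold were outside all 4 intervals. For DUSP4, a dim gene, this holds for the signal only. SOX2 RNA itself fell by 3.14 ± 0.12 on the log2 scale in 2102Ep and by 0.64 ± 0.12 in NTera-2. By Western blot the study found no SOX2 protein in siSOX2 cells of either line. The part of the unequal RNA loss in the differences above was not tested.

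**Figure D2:**
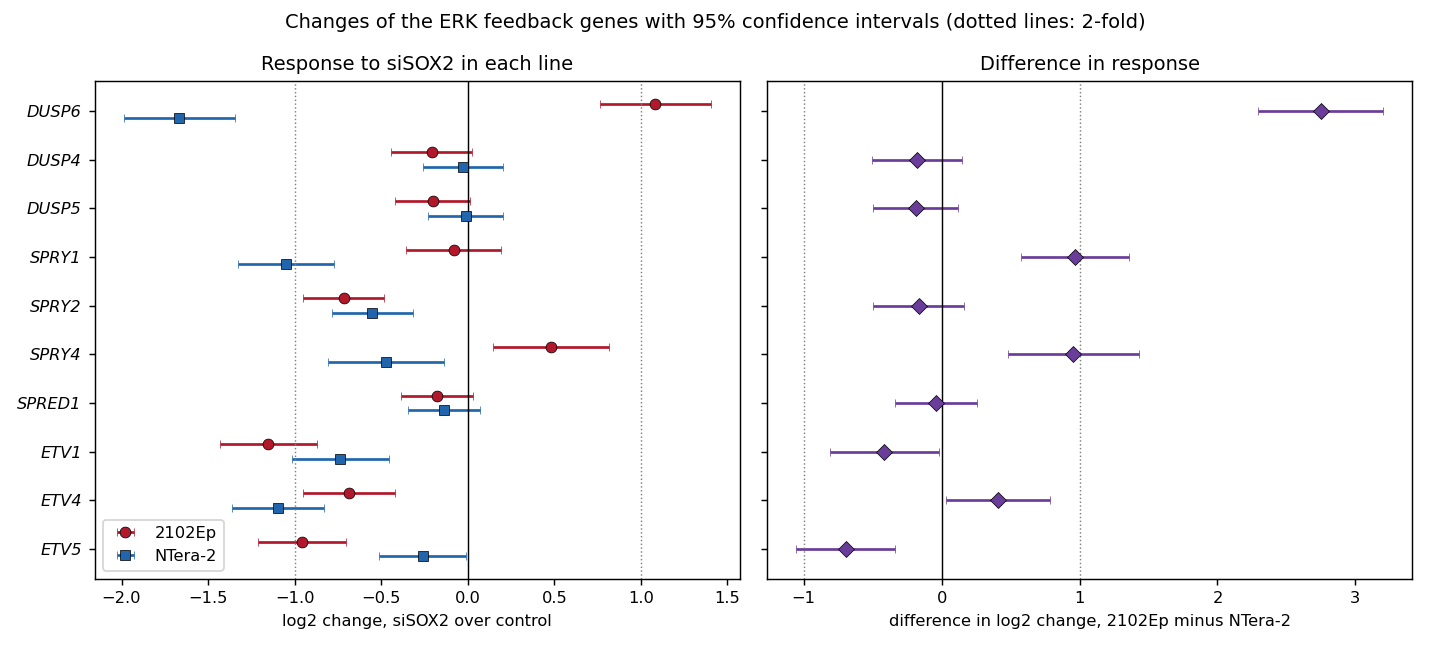
Log2 change of each of the 10 genes, siSOX2 over control, in 2102Ep (red circles) and NTera-2 (blue squares) on the left, and the difference of these changes, 2102Ep minus NTera-2, on the right (purple diamonds). Bars are 95% confidence intervals from limma and dotted lines mark 2-fold. For DUSP6 the bars are a description and not a test. DUSP6 stands at 1.08 and -1.67, a difference of 2.75, while SPRY1 and SPRY4 lie at 0.97 and 0.96 on the right.

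Sequence upstream of the transcription start was read because DUSP6 is a known target of ETS factors, the family of ETV1, ETV4 and ETV5. RefSeq sequences (GRCh38.p14) matched 6 of the 10 genes: DUSP6, SPRY1, SPRY2, SPRY4, SPRED1 and ETV1. ETV5, whose response differed between the lines, was not among them and was not read. The 250 bases before each start were searched on both strands for an ETS core with 1 flanking base, CGGAA, and for a SOX core, ATTGT. The 2 motifs did not overlap in any of these promoters. The sequences follow for DUSP6 (chr12:89352502-89352751, minus strand), for SPRY4 (chr5:142324248-142324497, minus strand) and for the downstream one of 2 starts of SPRY1 (chr4:123398136-123398385, plus strand), 5′ to 3′ on the strand of the gene and ending just before the start. Capitals mark CGGAA or its reverse complement.
DUSP6: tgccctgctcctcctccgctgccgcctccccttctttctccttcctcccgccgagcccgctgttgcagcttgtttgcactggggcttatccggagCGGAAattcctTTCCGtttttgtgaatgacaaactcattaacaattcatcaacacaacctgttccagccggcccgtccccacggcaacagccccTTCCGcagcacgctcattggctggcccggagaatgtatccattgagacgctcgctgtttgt
SPRY4: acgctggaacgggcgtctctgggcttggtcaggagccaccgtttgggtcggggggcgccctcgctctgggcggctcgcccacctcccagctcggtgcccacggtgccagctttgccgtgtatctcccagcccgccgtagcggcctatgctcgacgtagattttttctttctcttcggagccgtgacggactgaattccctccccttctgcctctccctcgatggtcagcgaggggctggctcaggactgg
SPRY1: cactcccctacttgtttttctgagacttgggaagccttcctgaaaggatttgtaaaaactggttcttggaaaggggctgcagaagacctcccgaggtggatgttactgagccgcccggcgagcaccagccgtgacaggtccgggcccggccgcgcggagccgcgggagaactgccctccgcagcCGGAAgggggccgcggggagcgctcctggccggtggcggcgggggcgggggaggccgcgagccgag

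DUSP6 held 3 such matches, beginning 155, 144 and 61 bases before the start, and 1 SOX core at 115 bases. SPRY1 held 1 ETS match, at 66 bases, before the start shown and 0 before its other start. SPRY4 held 0 of either motif. Of the other promoters, the most upstream of 3 starts of SPRY2 held 2 ETS matches, 3 of the 6 starts of ETV1 held 1 or 2 (overlapping windows share sites), and SPRED1 held 0. A SOX core also lay before ETV1, as the same site in the overlapping windows of 2 starts, at 24 and 200 bases. The promoters of SPRY1, SPRY2 and SPRED1 held 0 SOX cores. The shares among 35116 RefSeq promoters of this length were 30.3% with at least 1 ETS match and 24.6% with at least 1 SOX core. A match of this length describes the sequence and does not show a bound site.

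The starting levels of the 2 lines were compared next. These comparisons use the same arrays as those above, and their counts also describe the list only. In control cells 7 of the 9 genes other than DUSP6 differed between NTera-2 and 2102Ep, 4 being higher and 3 lower in NTera-2 (21.0% and 21.5% of all genes were). Called were 0 higher and 1 lower (4.49% and 3.28% of all genes). For DUSP6 the difference, NTera-2 control minus 2102Ep control, was 2.20 ± 0.15 (SE), the 156th in size among all genes. DUSP5 was lower by 1.07 (-1.07 ± 0.10; adjusted p = 2.73e-07, limma), and without NTera-2 control replicate 1 by 0.99 (-0.99). SPRY1 (0.70), SPRY2 (0.68), DUSP4 (0.51) and SPRED1 (0.37) were higher in NTera-2 control cells, and SPRY4 (-0.79) and ETV4 (-0.60) were lower. ETV1 (-0.06, interval -0.34 to 0.22) and ETV5 (0.05, interval -0.20 to 0.30) started at levels that the arrays did not separate.

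Between the siSOX2 groups DUSP6 stood at -0.55 ± 0.15 (SE; NTera-2 minus 2102Ep), and at -0.41 without 2102Ep siSOX2 replicate 3. The values of 2.20 and -0.55 together make up its difference in response and add nothing independent to it. SPRY1 stood at -0.27 between the siSOX2 groups against 0.70 between the control groups, but the difference between the siSOX2 groups did not pass (adjusted p = 0.107, limma). In all, 8 of the 9 genes other than DUSP6 differed between the siSOX2 groups, 5 being higher and 3 lower in NTera-2 (23.1% and 18.5% of all genes were). Called were 0 higher and 2 lower (4.61% and 3.03%). SPRY4 differed by -1.74 ± 0.16 (adjusted p = 1.41e-07, limma) and ETV4 by -1.01 ± 0.13 (adjusted p = 5.45e-06, limma), and ETV4 was under 2-fold without 2102Ep siSOX2 replicate 1 (-0.94), 2102Ep siSOX2 replicate 2 (-0.96) or NTera-2 siSOX2 replicate 1 (-0.96). ETV5, alike in the control cells, was higher in NTera-2 siSOX2 cells by 0.75 ± 0.12 (adjusted p = 7.78e-05, limma). ETV1 was higher by 0.36 (adjusted p = 0.0396, limma), which did not pass with a further quantile normalization or without any 1 of 5 arrays (adjusted p = 0.0523 to 0.191).

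**Figure D3:**
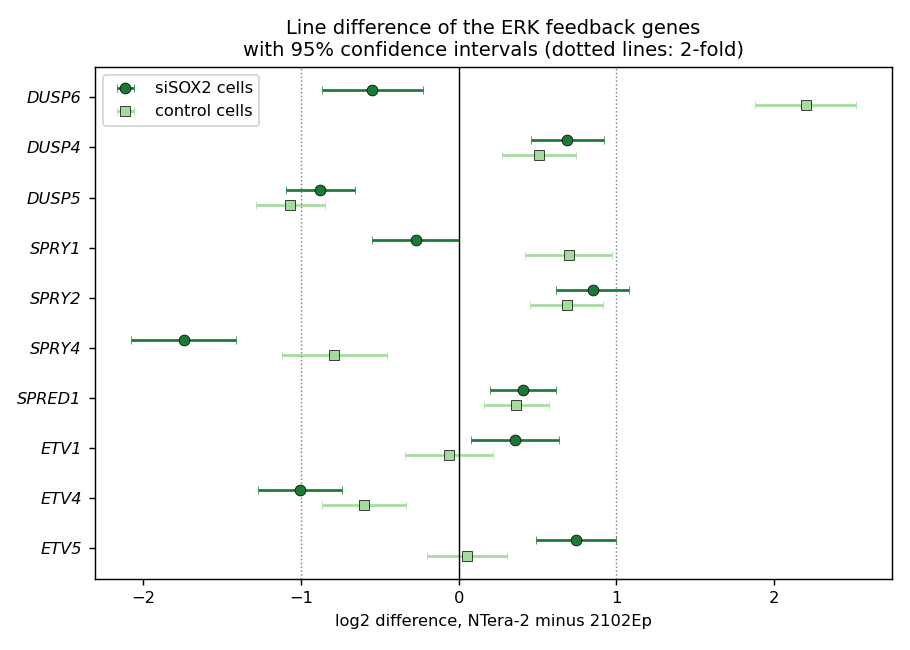
Log2 difference between the lines, NTera-2 minus 2102Ep (horizontal axis), for each of the 10 genes (vertical axis), in siSOX2 cells (dark circles) and in control cells (light squares), with 95% confidence intervals and dotted lines at 2-fold. DUSP6 lies at -0.55 in siSOX2 cells and at 2.20 in control cells, while DUSP5 lies at -0.88 and -1.07. For DUSP6 the intervals are a description and not a test.

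Ordered over the 4 groups, the levels gave different sequences of groups for different genes. DUSP4, SPRED1 and DUSP5 were ordered by line: both NTera-2 groups lay above both 2102Ep groups for DUSP4 and SPRED1 and below them for DUSP5. SPRY4 was ordered by line too, with both 2102Ep groups on top. The 4 groups did not overlap for SPRY4 or for SPRED1. SPRY2 was lowest in 2102Ep siSOX2 cells, then came 2102Ep control and NTera-2 siSOX2 cells, which overlapped, and NTera-2 control cells were highest. SPRY1 was lowest in NTera-2 siSOX2 cells and highest in NTera-2 control cells, with the 2 overlapping 2102Ep groups between them. For ETV1 and ETV5 both siSOX2 groups had the lowest means, with 2102Ep siSOX2 at the bottom. For ETV5 the NTera-2 siSOX2 arrays overlapped the 2102Ep control arrays, and the control groups overlapped for both genes. For ETV4 NTera-2 siSOX2 cells (9.76) were lowest, 2102Ep siSOX2 (10.77) and NTera-2 control cells (10.86) overlapped, and 2102Ep control cells (11.46) were highest.

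Likeness of pattern was measured as the root mean square difference between the 12 array values of 2 genes, each gene first centred on its mean. Among the 10 genes the closest pairs were DUSP4 and SPRED1 (0.15 log2 units), ETV1 and ETV5 (0.28) and SPRY2 and ETV5 (0.28). DUSP6 was nearest to SPRY1 (0.59) and farthest from DUSP5 (1.19) and SPRY4 (1.17). The distance from DUSP6 to SPRY1 was the 42nd smallest of 18403, and those to the remaining 8 genes were between the 1446th and the 17720th. The genes outside the list with the smallest distance from DUSP6 were PPP1R17, a regulator of protein phosphatases (0.35), the matrix glycoprotein gene TNC (0.38), the gastrin and cholecystokinin receptor CCKBR (0.39), the phosphatase CDC14B (0.40), the blood group gene RHD (0.40) and the transcriptional repressor BHLHE41 (0.42). RHD has a near-identical relative, RHCE, so its signal is uncertain. In 2102Ep the changes of these 6 genes ran from 0.19 (RHD) to 0.89 (TNC), and in NTera-2 from -1.73 (PPP1R17) to -0.71 (CDC14B). They were chosen for their likeness, so these values are a description.

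**Figure D4:**
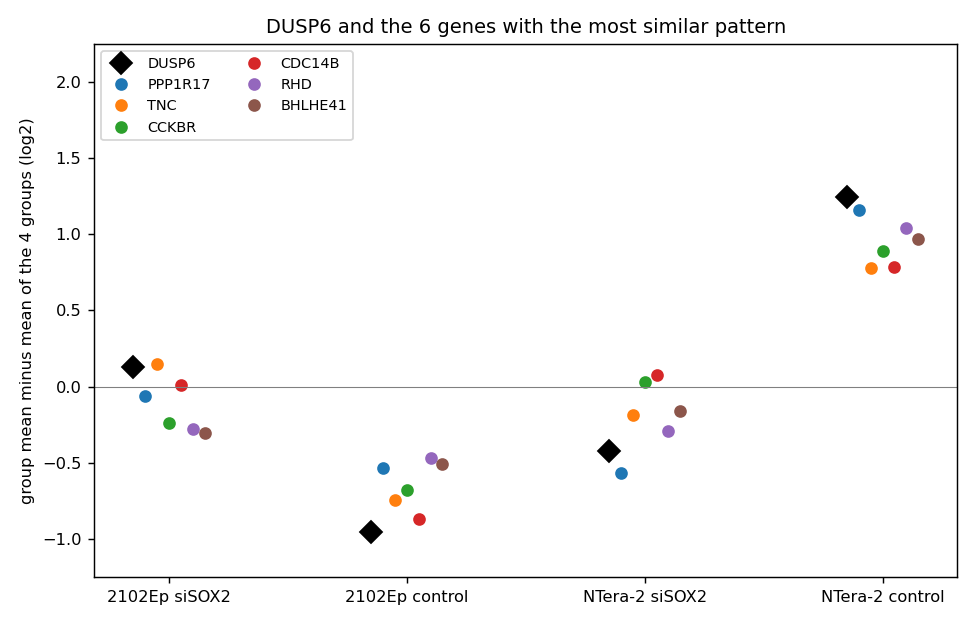
Group means minus the mean of the 4 groups (log2, vertical axis) for DUSP6 (black diamonds) and the 6 genes with the smallest root mean square difference from it (coloured circles), by group (horizontal axis). Like DUSP6, the 6 genes have their highest mean in NTera-2 control cells and, except for PPP1R17 (8.27 in NTera-2 siSOX2 and 8.30 in 2102Ep control cells), their lowest in 2102Ep control cells, and TNC changes by 0.89 in 2102Ep and -0.96 in NTera-2.

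The wider pathway was described from 7 further lists of genes. Their counts stand beside 6.76% of all genes that rose and 5.90% that fell in 2102Ep, and 2.96% and 1.98% in NTera-2, and nothing particular to a list is read from them. Genes that are described beyond those called and the 3 brightest of each list were chosen after their values were seen. Of 8 other MAP kinase phosphatases 2 rose and 0 fell in 2102Ep, DUSP1, an immediate early phosphatase (0.95 ± 0.11, SE; adjusted p = 7.64e-06, limma), and DUSP7 (0.42, adjusted p = 0.0492, limma). DUSP7 no longer passed the adjusted p in 13 of 19 alternative fits, DUSP1 passed in all. In NTera-2 0 of 8 passed, with DUSP1 at 0.32. The list medians were 0.17 and 0.04. DUSP16, among the brightest, stood at 0.04 and 0.12.

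Of 12 other inhibitors of RAS and ERK signalling 1 rose and 1 fell in 2102Ep. These were NF1, the RAS GTPase activator (0.56), and PEBP1, a RAF inhibitor (-0.34), which did not pass in 2 and 4 of 19 alternative fits. In NTera-2 0 rose and 2 fell. They were ERRFI1, an inhibitor of the EGF receptor (-0.75, adjusted p = 0.00415, limma), and IL17RD, which encodes the FGF antagonist SEF (-0.74, adjusted p = 0.000522, limma). IL17RD was at 10.70 to 10.83 in 2102Ep siSOX2 cells and 10.57 to 10.81 in 2102Ep control cells, and at 10.09 to 10.33 in NTera-2 siSOX2 cells and 10.83 to 11.16 in NTera-2 control cells. Its responses differed between the lines by 0.87 ± 0.16 (adjusted p = 0.00292, limma). PEA15, which holds ERK in the cytoplasm, differed by 0.66 (adjusted p = 0.0101, limma) without passing in either line.

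Among 11 other ETS factors 4 rose and 0 fell in 2102Ep, and 0 rose and 2 fell in NTera-2. ETS2 rose in 2102Ep, with 9.15 to 9.31 in siSOX2 cells and 8.08 to 8.45 in control cells (0.99 ± 0.13, SE; adjusted p = 2.41e-05, limma), and stood at -0.40 in NTera-2 (adjusted p = 0.0836, limma). ETS1 passed in both lines with opposite signs, 0.47 ± 0.11 in 2102Ep (adjusted p = 0.0085, limma) and -0.95 ± 0.11 in NTera-2 (adjusted p = 3.94e-05, limma). The differences between the lines, 1.42 ± 0.16 for ETS1 (adjusted p = 2.14e-05, limma) and 1.39 ± 0.18 for ETS2 (adjusted p = 8.31e-05, limma), were both called. ELK3 (0.78) and ETV3 (0.39) also rose in 2102Ep, while FLI1 (-0.56), below the median gene in mean signal, fell in NTera-2. ETV3 did not pass in 10 of 19 alternative fits, nor ETS1 in 2102Ep in 1 (adjusted p = 0.0501). ELK1, the brightest of the list, stood at 0.20 and 0.12.

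Of 20 other ERK-induced genes 8 rose and 0 fell in 2102Ep, while 1 rose and 4 fell in NTera-2. IER3, an early response gene, rose in 2102Ep with 10.52 to 10.71 in siSOX2 cells and 9.62 to 9.83 in control cells (0.91 ± 0.10, SE; adjusted p = 5.07e-06, limma). In NTera-2 it stood at -0.25 (adjusted p = 0.225, limma), and the difference of 1.16 ± 0.14 was called (adjusted p = 5.62e-05, limma). FOSL2 (0.88), EGR1 (0.69), JUNB (0.64), EPHA4 (0.62), EPHA2 (0.57), CCND1 (0.51) and SRF (0.39) also rose in 2102Ep. MYC (-0.61), VGF (-0.59), FOS (-0.54) and PHLDA1 (-0.38) fell in NTera-2, where PLAUR rose (0.65). SRF did not pass in 13, EGR1 in 5 and PHLDA1 in 5 of 19 alternative fits. MCL1, the brightest, was at -0.32 and -0.06. The list medians were 0.20 and -0.14.

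Upstream of the cascade, 3 of 18 FGF ligands rose and 5 fell in 2102Ep, and 0 rose and 3 fell in NTera-2. Over the alternative fits these counts ran from 1 to 4, 2 to 6, 0 to 0 and 1 to 3. FGF1 (0.75, adjusted p = 0.000416, limma), FGF8 (0.46, adjusted p = 0.00453, limma) and FGF17 (0.34, adjusted p = 0.0402, limma) rose in 2102Ep, FGF17 not passing in 9 of 18 alternative fits. FGF23 (-0.46) and FGF6 (-0.35) fell there, not passing in 4 and 7 of 18, and FGF19 (-0.84) fell in NTera-2. FGF4, an autocrine factor of embryonal carcinoma cells, fell in both lines (-0.90 ± 0.12 and -0.78 ± 0.12, SE; adjusted p = 2.79e-05 and 0.000376, limma), as did FGF16 (-1.33 and -0.86), which was called in 2102Ep. FGF2 fell in 2102Ep (-0.62, adjusted p = 0.00185, limma) and stood at 0.09 in NTera-2. FGF18 stood at 0.31 and -0.05. In mean signal FGF1, FGF6, FGF16, FGF17, FGF19 and FGF23 lay below the median gene. Whether these cells express them was not tested. Of 4 FGF receptor genes 3 fell in 2102Ep, and 0 passed in NTera-2. FGFR3 read 9.35 to 9.55 in 2102Ep siSOX2 cells and 10.34 to 10.89 in 2102Ep control cells (-1.20 ± 0.13, SE; adjusted p = 4.06e-06, limma), and was at 0.13 in NTera-2. Its difference of -1.33 ± 0.18 was called (adjusted p = 0.000184, limma). FGFR2 (-0.68) and FGFR4 (-0.68) were the other 2, and FGFR1 stood at -0.21.

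In the cascade itself 15 of 21 listed genes were measured. In 2102Ep 2 rose, the ERK substrate kinase gene RPS6KA3 (0.88) and MAPK3, which encodes ERK1 (0.35; not passing in 6 of 19 alternative fits), and 0 fell. In NTera-2 1 rose, the RAS activator SOS2 (0.56, adjusted p = 0.0424, limma), which did not pass in 11 of 19 alternative fits, and 0 fell. PTPN11, SHC1 and ARAF, the brightest, lay between -0.17 and 0.26 in the 2 lines and did not pass. The list medians were 0.12 in 2102Ep and 0.06 in NTera-2.

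**Figure D5:**
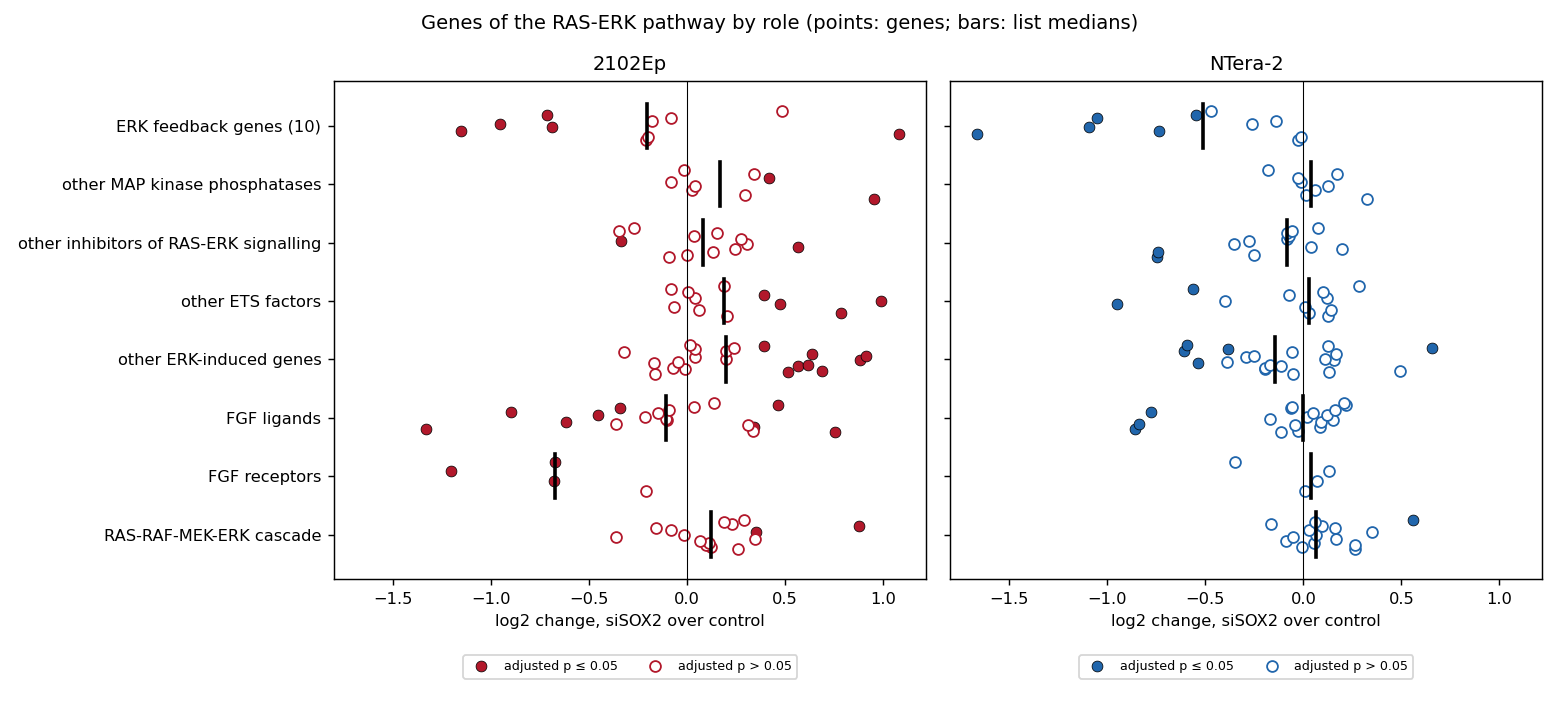
Horizontal axis, log2 change of siSOX2 over control cells for each gene (points) of the 10 ERK feedback genes and of 7 further lists by role (vertical axis). The left panel holds 2102Ep and the right one NTera-2. Filled points passed an adjusted p of 0.05, and black bars are list medians. The points of DUSP6, filled by the same rule, are a description and not a test. Medians lie at -0.21 (2102Ep) and -0.51 (NTera-2) for the 10 genes, and at 0.20 and -0.14 for the other ERK-induced genes.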

How the data were processed

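Total RNA of 12 transfected cultures was hybridised to Affymetrix Human Gene 1.0 ST arrays. The deposited values are log2 signals for 32321 probe sets, which the authors made by robust multi-array averaging in the manufacturer's software. The log base was taken from their range (1.57 to 14.98), and no source used here gives the software version. Such values compress weak signals, so that changes of dim genes are understated. The submitters' processing notes name limma.

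Probe sets with 1 annotated gene (19158) were named through the platform annotation and RefSeq (GRCh38.p14), and the brightest probe set stood for each of 18404 genes. A mean per group was fitted with limma 3.58.1 in R 4.3.3, for 5 contrasts. Calls needed an adjusted p of 0.05 and a 2-fold change. The smallest two-sided p of an exact permutation test on 3 and 3 arrays is 0.1. The labels call replicates biological, without naming separate cultures, so p-values measure the spread between these samples. The fit was tested on simulated data.

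Members, lists and naming rule were chosen with earlier results of these data known. All 10 members are named, with list genes that were called, the 3 brightest of each list and the 6 genes most like DUSP6. Alternatives were a replicate block, fewer arrays in the fit, other scalings, filters, thresholds and variance models, the mean of probe sets, and leaving out each array. Plots were drawn with matplotlib 3.10.9.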

Additional observations from a re-analysis of the deposited data

Results flagged for a closer look

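The responses of SPRY1, SPRY4 and ETV5 to siSOX2 differed between 2102Ep and NTera-2 in the test of the difference itself, by 0.97, 0.96 and -0.69 in log2 change (2102Ep minus NTera-2). The list that holds these genes was chosen with earlier results of these data known. DUSP6 was listed with its opposite changes already known, so that its difference of 2.75 is a description with no test. With each of the 12 arrays left out in turn, DUSP6 lay between 2.59 and 2.87, SPRY1 between 0.82 and 1.11 and SPRY4 between 0.78 and 1.12. ETV5 lay between -0.81 and -0.61 and did not pass the adjusted p in 5 of these 12 fits (adjusted p = 0.0565 to 0.071, limma).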

How the results depend on the processing

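Counts here include DUSP6, for which they are a description. Leaving out 1 array moved the number of called genes among the 10 to between 1 and 3 (siSOX2 against control in 2102Ep), 1 and 3 (in NTera-2), 1 and 3 (difference in response), 1 and 2 (NTera-2 control against 2102Ep control) and 1 and 2 (NTera-2 siSOX2 against 2102Ep siSOX2). With no fold threshold these numbers were 5, 5, 4, 8 and 9 in the same order, and with a 3-fold threshold 0, 1, 1, 1 and 1. With no fold threshold 6.76% of all genes were higher and 5.90% lower in 2102Ep, and 2.96% and 1.98% in NTera-2. For the difference in response the shares were 2.53% and 2.67%. Between the control groups they were 21.0% and 21.5%, and between the siSOX2 groups 23.1% and 18.5%. Shares are not given for the other alternatives, whose counts describe the list only. The difference in response had 2 called genes with arrays centred on their median and 2 with a further quantile normalization. DUSP6 was 1 of the 2 each time, and SPRY1 and SPRY4 each reached 2-fold in 1 of these fits. Whether replicate numbers pair the samples cannot be settled with 3 arrays a group. Deviations of same-numbered arrays correlated between -0.377 and 0.268 across genes, above 0.1 in 4 of 12 pairs within and across lines. Between siSOX2 and control arrays the correlations were 0.0652, 0.179 and 0.128 in 2102Ep, and -0.249, -0.206 and 0.136 in NTera-2. With the replicate number as a block 2, 3, 1, 2 and 2 genes were called, as without it.

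The sign turned only for values near 0. With a further quantile normalization ETV5 between the control groups was -0.00393. With 1 array left out, siSOX2 against control in NTera-2 ran from -0.10 to 0.0537 for DUSP4 and from -0.0852 to 0.0306 for DUSP5, and NTera-2 control against 2102Ep control from -0.17 to 0.0585 for ETV1 and from -0.0240 to 0.10 for ETV5. Of 59 values of other list genes that passed, 19 did not pass under at least 1 alternative, all chosen after seeing the data, and 0 changed sign. The number of arrays limits all of these.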
